A study of Mus musculus with 6 samples.

Results

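Serpins are a family of protease inhibitors that share one fold and trap their target by a large change of shape. Their exposed reactive loop is cut by the protease, which is then dragged across the molecule and held. Some members have lost this activity and carry hormones or assist protein folding instead. The liver secretes many of them into plasma, where they restrain neutrophil elastase, thrombin, plasmin and the first proteases of complement. Members are sorted into clades by letter. Clade A holds the antitrypsins, antichymotrypsins and hormone carriers, clade B holds intracellular members, and several other letters hold only a few genes.

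The family was followed here in whole liver of untreated mice killed on postnatal day 14, with 3 Mir137-/- and 3 Mir137+/+ animals and 1 animal on each array. Mir137-/- animals carried a germline deletion of miR-137 in the whole body, made in E14 embryonic stem cells and passed on through C57BL/6 crosses, and per the methods most animals of the study came from heterozygous parents. All probe sets that the platform annotation gave exactly 1 gene symbol starting with Serpin were taken, and each gene was read from the brightest of its probe sets (largest mean of all 6 arrays). This gave 56 probe sets and 40 genes out of 18193 genes on the arrays, in 8 clades, with 14 genes in clade A and 18 in clade B. Genes of clade E were not analysed here.

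The mature microRNA that the mutants lack is shown with its seed, bases 2 to 8, in capitals, since its loss defines the mutants. It lies at chr3:118433901-118433923 on the plus strand (GRCm38.p6, RefSeq).
mmu-miR-137-3p: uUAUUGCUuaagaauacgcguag

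Levels are log2 values that the authors summarised for each probe set, so a difference of 1 is a doubling, and levels of different genes are not comparable. Differences are given as Mir137-/- minus Mir137+/+ with the SE of the limma fit, and levels as mean ± SD with n = 3 each. A gene was called when its Benjamini-Hochberg adjusted p over all 18193 genes was below 0.05 and its change was above 1.5-fold. Several arrays stood apart from the rest. Mir137+/+ replicates 2 and 3 carried Xist, the RNA that silences an X chromosome in females, at levels above 8, whereas only males are named by the methods. The mean level over 8 genes of skeletal muscle was 8.05 on Mir137-/- replicate 1 and 3.82 to 4.14 on the others, and 8 exocrine pancreas genes were at 8.94 on Mir137-/- replicate 2 and 7.58 on Mir137+/+ replicate 2, against 4.98 to 5.11 on the other arrays. Hepatocyte markers, among them Alb, had a mean level of 11.57 to 11.93 on every array, as the label liver requires, and 0 of 7 were called.

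Of the 40 Serpin genes, 2 rose in Mir137-/- liver, Serpina7 and Serpina11, and 3 fell, Serpina6, Serpina9 and Serpinb6b. Over all genes, 2.34% were called higher and 3.34% lower, 5.67% in all. All 5 called members had groups that did not overlap, as did 15 of the 40 members, or 37.5%, against 32.3% of all genes. The median difference of the family was -0.02, and that of all genes was 0.00. At an unadjusted p below 0.05 in limma, 13 members were found, and 26.8% of all genes. Within clade A, 2 genes rose and 2 fell of 14. Within clade B, 0 rose and 1 fell of 18. None of the 8 genes of the other clades was called, with 2 of those 8 at an unadjusted p below 0.05. Whether the clades differ was not tested.

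**Figure D1:**
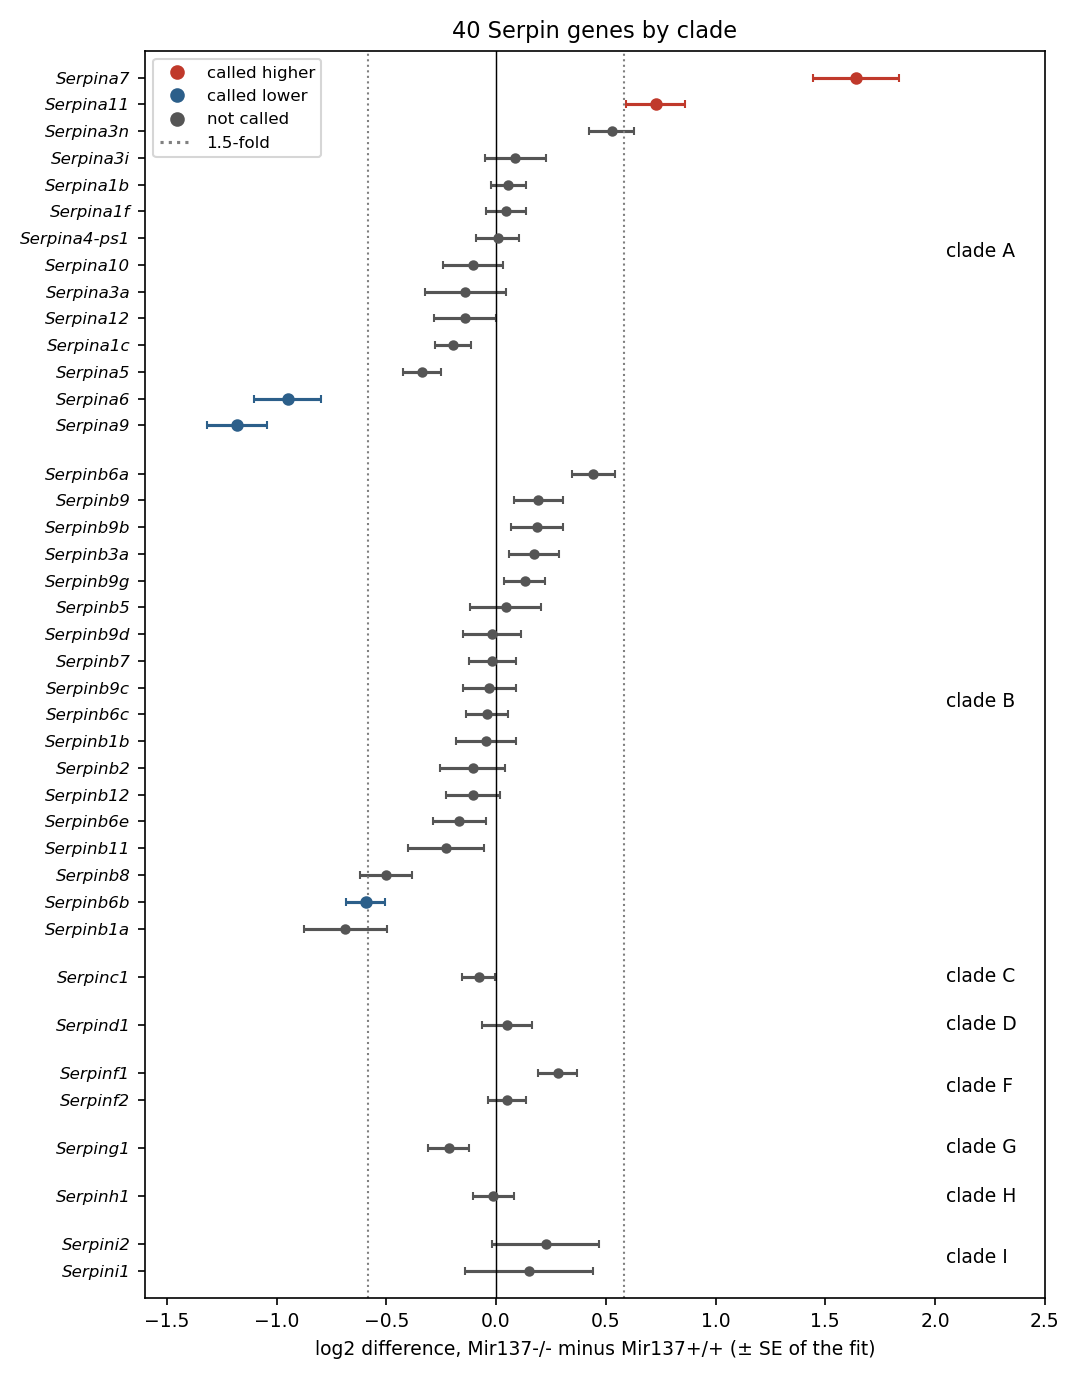
Log2 difference between genotypes for each of the 40 Serpin genes, grouped by clade, with bars for the SE of the fit and dotted lines at 1.5-fold. Clade A holds the extremes in both directions, Serpina7 at 1.64 and Serpina9 at -1.18, and most other members lie close to 0.

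The hormone carriers moved in opposite directions. Serpina7 encodes thyroxine-binding globulin, which carries thyroid hormone in plasma and inhibits no known protease. Its log2 level was 10.63, 10.57 and 10.74 on Mir137-/- replicates 1, 2 and 3 and 9.22, 9.29 and 8.51 on Mir137+/+ replicates 1, 2 and 3. All 3 Mir137-/- arrays lay above all 3 Mir137+/+ arrays, and Mir137+/+ replicate 3 was the lowest. Serpina7 rose by 1.64 (SE 0.20, adjusted p = 0.00224 in limma), a 3.12-fold change and the only member whose change was also called when limma tested against the 1.5-fold threshold itself (adjusted p = 0.0479). With the methods' t-test after adjustment Serpina7 was not called (adjusted p = 0.0536). The gene is X-linked, and the Mir137+/+ arrays with Xist included both the highest and the lowest level of that genotype. Without those 2 arrays, which leaves 1 Mir137+/+ mouse whose spread is assumed to be that of the other group, its difference was 1.43 (adjusted p = 0.0312), and a fit with a sex term, set by Xist, gave 1.43 without a call (adjusted p = 0.0534).

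Serpina6 encodes corticosteroid-binding globulin, the plasma carrier of glucocorticoids. It was at 10.73, 10.92 and 10.37 on Mir137-/- replicates 1 to 3 and at 11.79, 11.58 and 11.50 on Mir137+/+ replicates 1 to 3. The groups did not overlap, and Mir137-/- replicate 3 was lowest. Serpina6 fell by 0.95 (SE 0.15, adjusted p = 0.00735 in limma), a 1.93-fold change. Its call was kept without any single array, with differences from -1.07 to -0.80, and was lost with the methods' t-test after adjustment (adjusted p = 0.0737). With sex as a term it was at -1.12 without a call (adjusted p = 0.0502), and without the Xist arrays at -1.12 (adjusted p = 0.116).

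**Figure D2:**
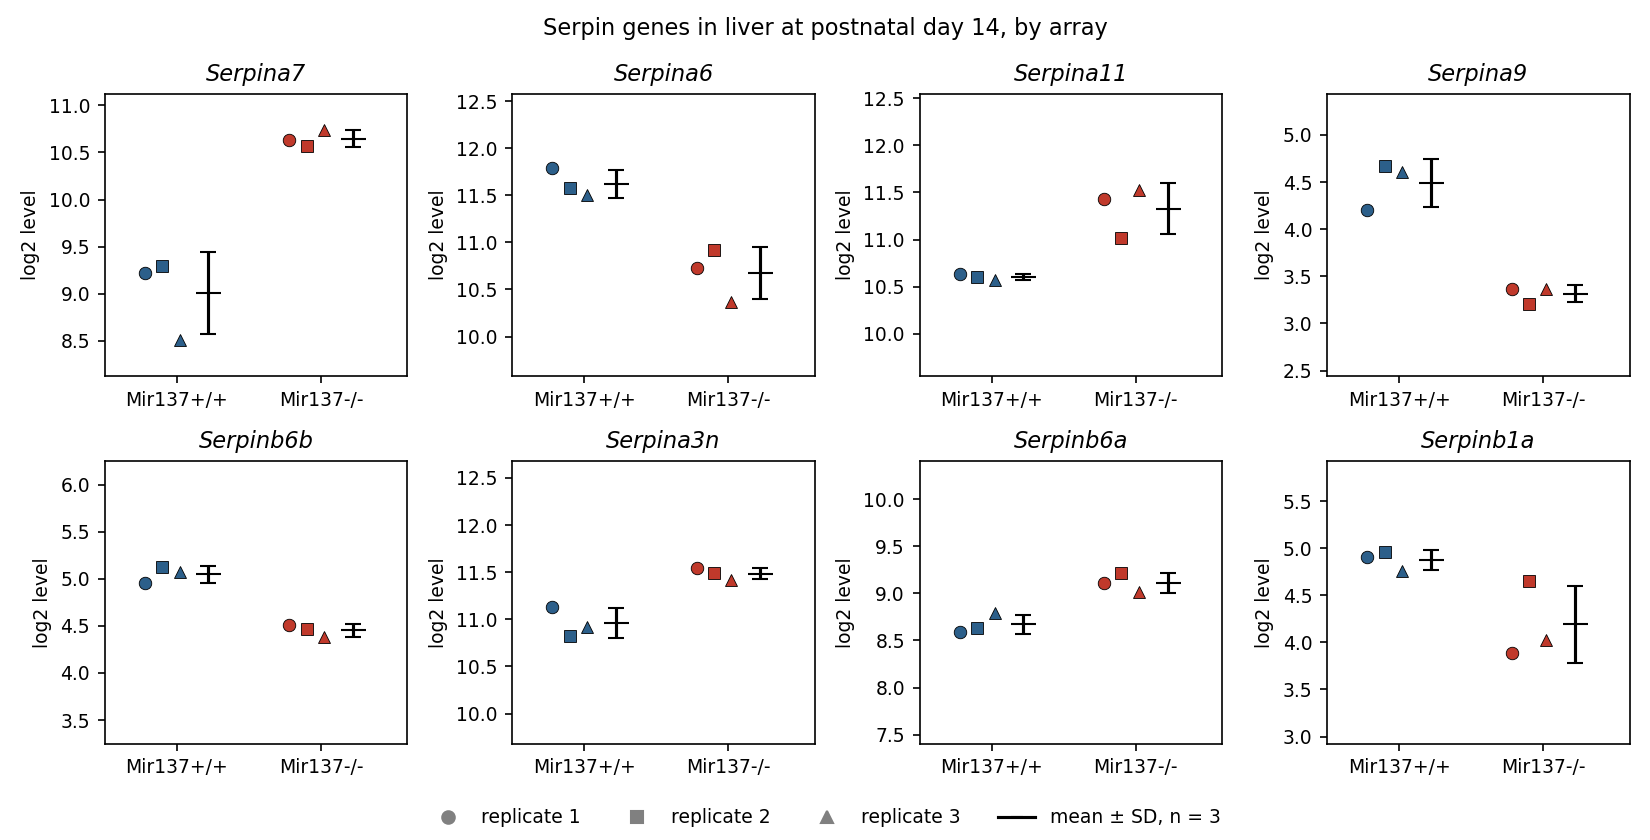
Log2 level of 8 Serpin genes on each array, with points for single arrays, marker shape for the replicate number, and bars that show mean and SD (n = 3). Each vertical axis spans 3 log2 units and does not start at 0. Serpina7 (10.65 against 9.01) and Serpina11 lay higher in Mir137-/-, and Serpina6 (10.67 against 11.62), Serpina9 and Serpinb6b lay lower.

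The promoters of the called members are shown because these are the genes that differed between the genotypes, and 34 of the 40 members had an entry in the RefSeq table (GRCm38.p6). Serpina6 and Serpina9 are named only. Each line gives the 250 bases before the first listed start, 5′ to 3′ on the strand of the gene. Capitals mark matches on either strand to 5 motifs. The TATA box was searched as TATAAA. The site of the liver factor HNF1 was searched by its part GTTAAT and that of HNF4 by its part CAAAGT. The motif of C/EBP factors was searched as TTGCNNAA, and the motif of STAT factors was searched as TTCNNNGAA. Serpina7 lies at chrX:139085237-139085486 on the minus strand, Serpina11 at chr12:103989958-103990207 on the minus strand, and Serpinb6b at chr13:32965011-32965260 on the plus strand.
Serpina7: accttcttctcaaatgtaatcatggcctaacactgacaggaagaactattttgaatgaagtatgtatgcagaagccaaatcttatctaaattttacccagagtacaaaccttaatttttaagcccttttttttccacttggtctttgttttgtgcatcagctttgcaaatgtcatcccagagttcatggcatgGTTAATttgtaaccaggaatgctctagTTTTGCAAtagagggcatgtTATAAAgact
Serpina11: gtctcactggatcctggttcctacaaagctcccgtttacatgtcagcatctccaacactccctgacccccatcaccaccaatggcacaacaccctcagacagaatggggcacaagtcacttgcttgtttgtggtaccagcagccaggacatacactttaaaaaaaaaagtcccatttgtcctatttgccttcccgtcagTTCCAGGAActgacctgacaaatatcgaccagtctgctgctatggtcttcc
Serpinb6b: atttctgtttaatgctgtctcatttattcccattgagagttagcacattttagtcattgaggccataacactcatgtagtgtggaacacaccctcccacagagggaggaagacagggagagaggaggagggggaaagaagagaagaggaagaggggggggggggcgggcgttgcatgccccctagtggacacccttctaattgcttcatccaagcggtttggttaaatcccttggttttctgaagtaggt

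The Serpina7 window held GTTAAT at 57 to 52 bases before the start, TTGCNNAA on the opposite strand at 30 to 23, and TATAAA at 10 to 5, with no overlap among them. Over all 32851 windows of this length, 6.43% held GTTAAT, 9.56% held TTGCNNAA and 12.4% held TATAAA. The Serpina11 window held TTCNNNGAA at 51 to 43 bases before the start, a motif found in 7.02% of windows. The Serpinb6b window held 0 of the 5 motifs, and CAAAGT, found in 12.6% of windows, was in none of the 3 windows. These matches are letters in a window, and binding was not measured.

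Serpina11, a liver member of clade A close to the antitrypsins whose target is not established, was the other riser. Its level was 11.43, 11.02 and 11.53 on Mir137-/- replicates 1 to 3, and 10.63, 10.60 and 10.57 on Mir137+/+ replicates 1 to 3. The Mir137+/+ arrays had an SD of 0.03 and lay below all Mir137-/- arrays, of which replicate 2 was lowest. The difference was 0.73 (SE 0.14, adjusted p = 0.0139 in limma). It was not called without Mir137+/+ replicate 2 (adjusted p = 0.0524) or replicate 3 (adjusted p = 0.0555). The same held in the fit that included sex (0.70, adjusted p = 0.154), in the one that left out both Xist arrays (0.70, adjusted p = 0.266) and with the methods' t-test (adjusted p = 0.0888).

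The antitrypsins, which restrain neutrophil elastase in the lung and elsewhere, were not called. Serpina1b was at 13.46 ± 0.02 in Mir137-/- and 13.40 ± 0.04 in Mir137+/+ (difference 0.06, SE 0.08, adjusted p = 0.702 in limma). Serpina1c was at 13.18, 13.27 and 13.12 on the Mir137-/- arrays and at 13.37, 13.36 and 13.43 on the Mir137+/+ arrays. Its groups did not overlap, but the difference of -0.20 was not called (SE 0.08, adjusted p = 0.178). The highest value of any probe set on any array was 13.79. The probe sets of Serpina1b end in _x_at, which marks probes that can bind other transcripts, and the antitrypsin genes are near-identical copies, so values of a single copy are uncertain.

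Serpina3n, an antichymotrypsin that is an acute phase gene in mouse, was at 11.54, 11.49 and 11.42 in Mir137-/- and at 11.13, 10.82 and 10.92 in Mir137+/+. The groups did not overlap. The difference of 0.53 passed the adjusted p (0.0170 in limma, SE 0.10) and stayed under the 1.5-fold threshold. With sex as a term it was 0.35 (adjusted p = 0.237). The other measured genes of that group, Serpina3a at -0.14 and Serpina3i at 0.09, lay below the array medians of 4.88 to 4.91, and their groups overlapped.

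Serpins of clotting and its breakdown showed no calls. Serpinc1 is antithrombin, the main inhibitor of thrombin, and was at 12.69 ± 0.02 in Mir137-/- and 12.77 ± 0.04 in Mir137+/+. Its groups did not overlap, with a difference of -0.08 (SE 0.08, adjusted p = 0.570 in limma). Serpind1, heparin cofactor, differed by 0.05 (SE 0.11) and Serpinf2, which inhibits plasmin, by 0.05 (SE 0.09). Serpina10, which inhibits clotting factor Xa together with protein Z, differed by -0.11 (SE 0.14). Serpina5, the protein C inhibitor, was at 3.35 ± 0.04 against 3.69 ± 0.09, a difference of -0.34 that passed the adjusted p (0.0427 in limma) under the fold threshold and at levels below the array median.

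Serping1, the inhibitor of the first complement proteases, was at 11.49, 11.58 and 11.34 in Mir137-/- and at 11.74, 11.65 and 11.67 in Mir137+/+. The groups did not overlap, and the difference of -0.22 was not called (SE 0.09, adjusted p = 0.182 in limma). Serpinf1, pigment epithelium-derived factor, which inhibits no protease and restrains vessel growth, was at 12.18 ± 0.11 against 11.90 ± 0.05, also without overlap (difference 0.28, SE 0.09, adjusted p = 0.0897). Its dimmer probe set gave 0.47 (adjusted p = 0.0618 over probe sets). Serpinh1, the collagen chaperone of the endoplasmic reticulum, was at 7.90 ± 0.05 against 7.91 ± 0.13, with overlapping groups. Serpina12, or vaspin, a secreted member known from fat tissue, was at 5.20 ± 0.08 against 5.34 ± 0.28.

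Genes of the chromosome 12 cluster did not move together. In the order of the RefSeq gene table, Serpina11 and Serpina9 are next to each other among the Serpin genes. Serpina11 was at 0.73 and Serpina9 at -1.18. Serpina6, at -0.95, stands beside Serpina10 at -0.11. Of 13 measured members on chromosome 12, 1 rose and 2 fell. On chromosome 13, 0 of 11 rose and Serpinb6b fell. On chromosome 1, 0 of 8 were called.

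**Figure D3:**
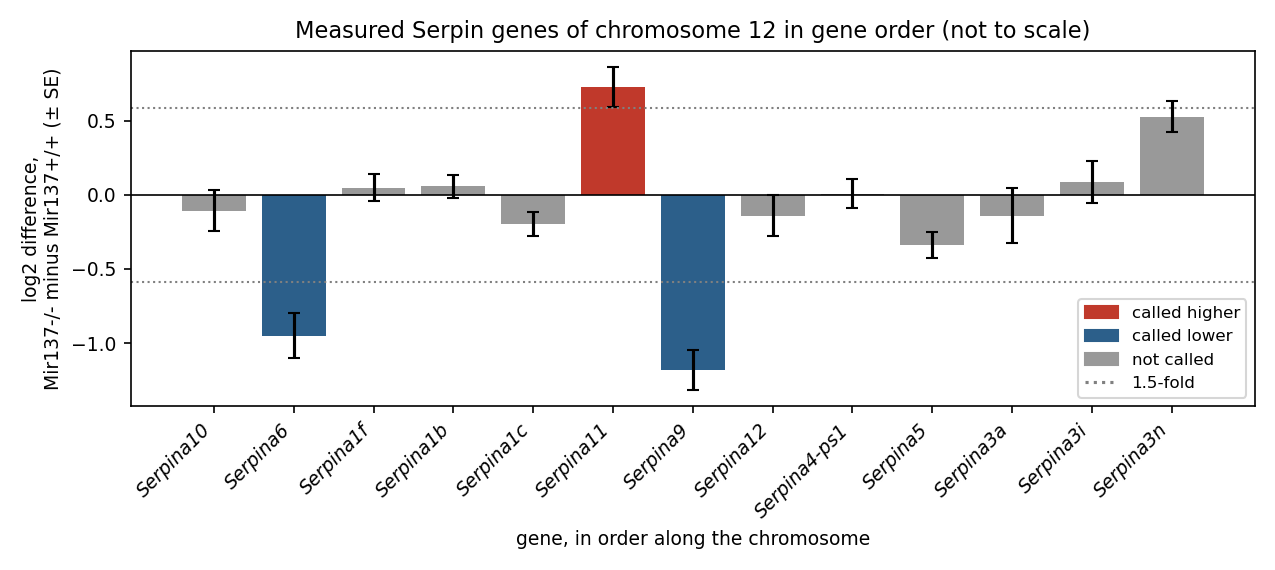
Log2 difference between genotypes for the 13 measured Serpin genes of chromosome 12, in gene order and not to scale, with bars for the SE of the fit. Serpina11 (0.73) and its neighbour Serpina9 (-1.18) have opposite signs, and 3 of the 13 bars are called.

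Serpina9 was the faller with the largest difference. It is a clade A member known from germinal centre B cells. The level was 3.37, 3.21 and 3.36 on Mir137-/- replicates 1 to 3 and 4.20, 4.67 and 4.61 on Mir137+/+ replicates 1 to 3. The groups were far apart, and all 6 levels lay below the array medians. Serpina9 fell by 1.18 (SE 0.13, adjusted p = 0.00187 in limma), and by 0.89 without the Xist arrays, where it was not called (adjusted p = 0.0809). With sex as a term the call was kept at -0.89 (adjusted p = 0.0286). Of 5 measured genes of B cell precursors, 4 fell, and the mean of the list was 4.82 to 5.10 on the Mir137-/- arrays and 5.82 to 6.05 on the Mir137+/+ arrays. Vpreb1, a gene of these cells, was at 2.88 to 3.08 against 4.71 to 5.32. Pax5, also on the list, was not called (difference 0.16), and its groups overlapped. The part of these cells in the Serpina9 result was not tested, and in whole liver RNA fewer cells of a type and less RNA per cell cannot be told apart.

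Among clade B members, which act inside cells, Serpinb6b was at 4.51, 4.47 and 4.38 in Mir137-/- and at 4.95, 5.12 and 5.07 in Mir137+/+. The groups did not overlap, and the change of 1.51-fold was just past the fold threshold. Serpinb6b fell by 0.59 (SE 0.09, adjusted p = 0.00561 in limma). It dropped under the fold threshold without Mir137-/- replicate 3 (-0.56) or Mir137+/+ replicate 2 (-0.56) or 3 (-0.58), and it lost its call at -0.50 in the fit that included sex (adjusted p = 0.109) or without the Xist arrays (adjusted p = 0.216), or at -0.56 without the arrays with pancreas transcripts (adjusted p = 0.0674).

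Serpinb1a, which protects neutrophils from their own granule proteases, was at 3.89, 4.65 and 4.03 in Mir137-/- and at 4.91, 4.96 and 4.76 in Mir137+/+. The groups did not overlap, but Mir137-/- replicate 2 was close to the Mir137+/+ arrays and the difference of -0.69 was not called (SE 0.19, adjusted p = 0.0536 in limma). Without Mir137-/- replicate 2 the difference was -0.92 and was called (adjusted p = 0.00603). Its second probe set, near 2.5 in both genotypes, differed by 0.03. Serpinb8 was at 4.21 ± 0.19 against 4.71 ± 0.12, a difference of -0.50 that passed the adjusted p (0.0331) under the fold threshold. Its dimmer probe set was called at -0.80 (adjusted p = 0.00832 over probe sets). Both group means of Serpinb1a and of Serpinb8 lay below the array medians.

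Neutrophil markers were lower beside Serpinb1a, Serpinb6b and Serpinb8. Of 8 measured neutrophil genes, 6 fell, and the mean of the list was 5.94 to 6.45 on the Mir137-/- arrays and 7.24 to 7.76 on the Mir137+/+ arrays. Within the Mir137-/- group, the list was highest on replicate 2 and lowest on replicate 1. Serpinb1a was also highest on replicate 2, whereas Serpinb6b and Serpinb8 were highest on replicate 1. Within the Mir137+/+ group, the list was at 7.24, 7.67 and 7.76 on replicates 1 to 3. There Serpinb1a was lowest on replicate 3 (4.76), Serpinb8 was highest on replicate 3 and Serpinb6b was highest on replicate 2. The granule gene Ngp was at 7.19 to 8.10 against 9.41 to 9.83. Vpreb1 and Ngp were picked for mention with their values in view. Lower levels were not confined to the neutrophil and B cell precursor lists. The mean of the platelet and megakaryocyte list was 5.78 to 5.95 on the Mir137-/- arrays and 6.36 to 6.50 on the Mir137+/+ arrays. The Kupffer cell list went the other way, at 9.58 to 9.67 against 9.38 to 9.53. The part of neutrophil transcripts in the values of Serpinb1a, Serpinb6b and Serpinb8 was not tested.

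Serpinb6a, an intracellular inhibitor of cathepsin G, went the other way from Serpinb6b. It was at 9.11, 9.22 and 9.01 in Mir137-/- and at 8.59, 8.63 and 8.79 in Mir137+/+, with groups that did not overlap. The difference of 0.44 passed the adjusted p (0.0255 in limma, SE 0.10) under the fold threshold. Serpinb3a, at 2.35 ± 0.21 against 2.18 ± 0.03, was the only further clade B gene without overlap (adjusted p = 0.392). The choice of Serpinb3a, Serpinb6a and Serpinb8 for mention followed from their values.

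The remaining 17 members had overlapping groups and differences from -0.23 to 0.23. They were Serpina1f, Serpina4-ps1, Serpini1, Serpini2 and 13 clade B genes, namely Serpinb1b, Serpinb2, Serpinb5, Serpinb6c, Serpinb6e, Serpinb7, Serpinb9, Serpinb9b, Serpinb9c, Serpinb9d, Serpinb9g, Serpinb11 and Serpinb12. Among all 40 members, 21 had both group means below the lowest array median, and 1 of these, Serpina9, was called.

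Both clade I genes varied with single arrays. Serpini2, known from pancreas, was highest on Mir137-/- replicate 2 (3.57) and next on Mir137+/+ replicate 2, the 2 arrays with pancreas transcripts, and at 2.54 to 2.77 on the others. Serpini1, neuroserpin, was at 4.71 on Mir137-/- replicate 1, the array with muscle transcripts, and at 3.46 to 3.92 elsewhere. A dimmer probe set of Serpini1 was at 3.78 on that array and at 3.52 on Mir137+/+ replicate 1. Another was highest on Mir137-/- replicate 2. The part of pancreas and muscle transcripts in both patterns was not tested, and both genes were picked for mention from their values.

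**Figure D4:**
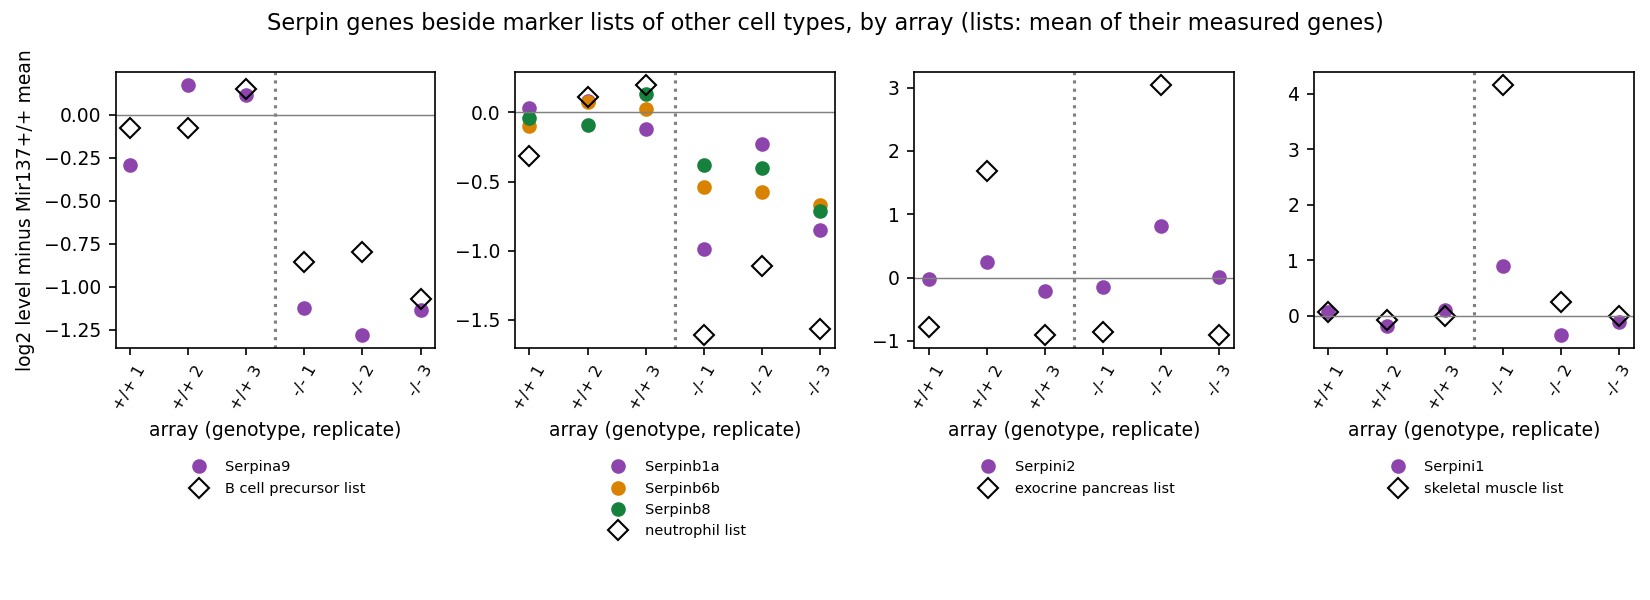
Log2 level on each array minus the Mir137+/+ mean, for Serpin genes (filled points) and for the mean of the measured genes of a marker list (open diamonds). Serpina9 and the B cell precursor list, and Serpinb1a, Serpinb6b, Serpinb8 and the neutrophil list, lie lower on all 3 Mir137-/- arrays, whereas Serpini2 and Serpini1 peak on the single Mir137-/- arrays where pancreas or muscle genes peak.

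Genes that work with serpins were read from lists of 81 genes, of which 79 were measured. Of these, 0 rose and 6 fell, beside the same 2.34% and 3.34% over all genes. The 27 target proteases had 0 risers and 3 fallers and a median of -0.18. Prtn3, proteinase 3 of neutrophil granules and a target of antitrypsin, was at 4.87, 5.34 and 5.18 in Mir137-/- and at 6.30, 6.39 and 6.56 in Mir137+/+, and fell by 1.29 (SE 0.14, adjusted p = 0.00153 in limma). The groups were well apart, but Prtn3 was not called without the Xist arrays (-1.17, adjusted p = 0.0932) or when tested against the 1.5-fold threshold itself (adjusted p = 0.0553). Gzma, a granzyme of cytotoxic lymphocytes, fell by 0.96 (SE 0.13, adjusted p = 0.00333), and lost its call in the fit that included sex (-0.94, adjusted p = 0.0639), without the Xist arrays (adjusted p = 0.0925) and with the methods' t-test (adjusted p = 0.0508). Masp1, a protease of the lectin pathway of complement, fell by 0.72 (SE 0.10, adjusted p = 0.00378), but was at -0.07 with the mean of all its probe sets (adjusted p = 0.635), and lost its call without the Xist arrays (-0.79, adjusted p = 0.111).

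Other neutrophil targets of serpins were not called. Elane, neutrophil elastase, was at 4.64, 4.85 and 4.27 in Mir137-/- and at 4.84, 5.48 and 5.53 in Mir137+/+, with groups that overlapped (difference -0.70, adjusted p = 0.0752 in limma). Ctsg, cathepsin G, differed by -0.57 (adjusted p = 0.0307), under the fold threshold. Both were picked for mention from their values. Of the 27 target proteases, 7 had an adjusted p below 0.05, as did 2177 of all 18193 genes. Besides Prtn3, Gzma, Masp1 and Ctsg, these were F9 (-0.44, adjusted p = 0.0101 in limma), Tmprss6 (-0.42, adjusted p = 0.0208) and F7 (-0.40, adjusted p = 0.0210). F9, Tmprss6 and F7 stayed under the fold threshold, and their groups did not overlap.

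Of 12 measured cofactors and receptors of serpins, 0 were called. The smallest p values were those of Sdc1, a heparan sulphate proteoglycan of hepatocytes (-0.50, adjusted p = 0.0141 in limma, under the fold threshold), and Lrpap1, the chaperone of the receptor that clears serpin complexes (-0.29, adjusted p = 0.0580). Both depended on the probe set, since Sdc1 was at -0.26 without _s_at and _x_at probe sets (adjusted p = 0.136) and Lrpap1 at -0.03 as the mean of its probe sets (adjusted p = 0.852). Of 14 genes for secretion and quality control of antitrypsin, Edem1, which sends misfolded glycoproteins to degradation, fell by 0.64 (SE 0.09, adjusted p = 0.00377). Edem1 was at 9.05, 9.05 and 9.17 in Mir137-/- and at 9.77, 9.64 and 9.78 in Mir137+/+. In the fit that included sex it was at -0.68 without a call (adjusted p = 0.0551), and as the mean of its probe sets it was at -0.57, under the fold threshold.

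Of 11 measured collagen partners of Serpinh1, 0 were called, with Crtap, a part of the collagen prolyl 3-hydroxylase complex, at 0.46 (adjusted p = 0.0217 in limma, under the fold threshold) and P4ha1, a prolyl 4-hydroxylase subunit, at -0.35 (adjusted p = 0.0947), or -0.23 without Mir137-/- replicate 3. Of 14 protease inhibitors outside the family, 0 rose and 2 fell. Wfdc2 was at 5.48, 5.63 and 5.87 in Mir137-/- and at 7.32, 7.49 and 7.56 in Mir137+/+, and fell by 1.80 (SE 0.12, adjusted p = 3.31e-04). It was called in all 21 alternatives. A2m, a broad protease trap, was at 5.28, 4.85 and 4.01 against 5.77, 5.79 and 6.21, a wide spread in Mir137-/-, and fell by 1.21 (SE 0.30, adjusted p = 0.0366). Its call was lost in 10 of 21 alternatives, among them the fits without Mir137-/- replicate 2 (-1.28, adjusted p = 0.0757) and without Mir137+/+ replicate 1, 2 or 3 (adjusted p = 0.0809 to 0.121).

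Agt, angiotensinogen, has the serpin fold under another name and releases the peptide that becomes angiotensin. It was at 12.32, 12.34 and 12.38 in Mir137-/- and at 12.13, 12.02 and 12.09 in Mir137+/+. The groups did not overlap, and the difference of 0.27 was not called (SE 0.08, adjusted p = 0.0712 in limma).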

How the data were processed

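Liver RNA was hybridised to Affymetrix GeneChip arrays of the mouse genome. The authors deposited log2 probe set values. The methods name RMA with a baseline-to-mean step and the labels name GCRMA, so the summary used is not settled, and versions and filters are not given in the sources used here. The values were used without further normalization. Of 45101 rows, 64 controls were left out. Of 45037 probe sets, 34945 had 1 gene symbol, 932 several and 9160 none, and 34741 matched GRCm38 by Entrez gene. The brightest probe set stood for each gene. The two-sided test of genotype used lmFit and eBayes from limma 3.58.1 under R 4.3.3, with Benjamini-Hochberg p-values adjusted over 18193 genes, and values of a second probe set over 45037 probe sets. The fit was tested on simulated data. No detection calls were used, so low values have no stated floor, and the number of arrays limits the precision. The labels number the mice as biological replicates.

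The members and lists were chosen with earlier results of these data known. Named genes were all called members, the secreted and matrix members, other members without overlap and above 1.5-fold, and the called genes of each partner list, or its 2 with the smallest p. Lists of erythroid, platelet, mast, cytotoxic, stellate, endothelial, Kupffer and keratinocyte markers were also measured. Of these, 1 platelet gene and 1 cytotoxic gene fell and 0 rose. The mean levels overlapped between the genotypes for all of these lists except platelet and Kupffer.

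The alternatives were the t-test of the methods with adjustment, treat, trend and robust eBayes, no adjustment, no fold threshold, centring on the median, array weights (which need statmod 1.5.0), quantile normalization, leaving out the 40% dimmest probe sets or those ending in _s_at or _x_at, the mean of all probe sets, the second brightest probe set, the replicate block, and leaving out arrays. Xist above 8 set the sex term. Both such arrays were Mir137+/+, so the fit with the sex term and the fit without those arrays rest on Mir137+/+ replicate 1 alone, which is assumed to vary like the others.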

Additional observations from a re-analysis of the deposited data

How the results depend on the processing

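Differences of the 5 called members kept their sign in all alternatives run. Serpin genes called higher numbered 2. They were 0 with the t-test of the methods and in the fit that included sex (set by Xist), 1 with treat and without the Xist arrays, 4 without a fold threshold, and 1 to 3 when single arrays were left out. Serpin genes called lower numbered 3, and were 2 with the t-test of the methods, 0 with treat and without the Xist arrays, 1 in the fit that included sex, 5 without a fold threshold, and 2 to 4 when single arrays were left out. Partner genes called higher numbered 0, and were 1 with trend and robust eBayes, 2 without a fold threshold or with the replicate block, 4 without adjustment, and 0 to 2 when single arrays were left out. Partner genes called lower numbered 6, and were 1 with treat and without the Xist arrays, 3 in the fit that included sex, 11 without a fold threshold, and 5 to 7 when single arrays were left out. Over all genes, 425 were called higher and 607 lower. These counts were 182 and 284 with the t-test of the methods, and 49 and 90 with treat. They were 184 and 259 in the fit that included sex, and 921 and 1256 without a fold threshold. The cause of these moves was not tested.

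Whether same-numbered arrays pair was not settled by the check used. Deviations from the group means correlated at 0.10, 0.23 and 0.03 for replicates 1, 2 and 3, and at -0.16 to 0.06 for differently numbered arrays. No cut-off was set, and both replicate 2 arrays carried pancreas transcripts. With the replicate block, all 5 Serpin calls were kept, Serpinb1a was called as well at -0.69 (adjusted p = 0.0462), and A2m was not called (adjusted p = 0.0690).

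Small differences without a call changed sign. When single arrays were left out, Serpina10 ran from -0.19 to 0.045, Serpina12 from -0.2317 to 0.0183, Serpina3a from -0.3517 to 0.0433, Serpina3i from -0.0283 to 0.195, Serpind1 from -0.0367 to 0.1583, and Serpinh1 from -0.0733 to 0.0517. Serpina3i was at -0.0733 both in the fit that included sex and without the Xist arrays, where Serpinh1 was at 0.1067 and Serpina12 at -0.4567. Serpinh1 was also at 0.0219 after quantile normalization, at 0.03 as the mean of its probe sets, and at 0.0733 without _s_at and _x_at probe sets or with its second probe set. Serpinb1a was at 0.03 with its second probe set. The filter on dim probe sets left out Serpina9. No other background correction could be tried on summarised values.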

Other observations

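Probe sets that the annotation gives to several Serpin genes were outside the family values above. The probe set shared by Serpina1a and Serpina1d measured 13.14 ± 0.04 (SD, n = 3) in Mir137-/- against 13.15 ± 0.04 in Mir137+/+, with overlapping groups. The probe set shared by Serpina1b, Serpina1c and Serpina1e was at 11.41 ± 0.17 against 11.36 ± 0.02, with the highest value, 11.61, on Mir137-/- replicate 3. The probe set shared by Serpinb9e, Serpinb9f, Serpinb9g and Serpinb9h was at 2.59 ± 0.11 against 2.71 ± 0.11, a level below the array medians.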
